A study of Mus musculus with 127 samples.

Results

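A set of 8 genes that move, package and break down the inhibitory transmitter GABA was followed through single cells of a mouse culture model of Huntington's disease. They were selected by name and are 8 of the 53465 genes in the count table. *Slc32a1* packages GABA into vesicles, *Slc6a11* and *Slc6a13* take it up from outside the cell, *Abat* and *Aldh5a1* break it down, and *Slc38a1*, *Slc38a2* and *Slc38a3* carry glutamine, its precursor. All 8 were in the table, and 7 passed the filter on low counts used for testing; *Slc6a13* did not.

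The table held 104 striatal neurons with a huntingtin construct, 9 with an empty vector and 14 untreated cortical astrocytes. Each cell had been recorded through a patch pipette at day 15 in vitro and its content drawn into that pipette for sequencing (Patch-seq). Neurons came from newborn C57BL/6 mice, grew singly on small islands of cortical astrocytes, and carried a lentivirus. Striatal neurons with 97Q-Htt, a GFP fusion of the first exon of human HTT with an expanded run of 97 glutamines, numbered 26 with the drug RGFP109 and 26 with DMSO vehicle. Those with 25Q-Htt, the same construct with a normal run of 25 glutamines, numbered 23 with RGFP109 and 29 with vehicle; the labels call this genotype wild type and the 97Q one mutant. A further 9 neurons carried a lentivirus without the insert (Empty vector). Their labels give a dose of 0 nM from day 6 and every 3 days, as for the vehicle groups. RGFP109, which blocks the deacetylases HDAC1 and HDAC3, was given at 100 nM from day 6 and again every 3 days. Every neuron group was thus transduced, and the construct was added to cells that kept their own mouse *Htt*; the labels name neither animals nor cultures.

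GABA released at a synapse is cleared by transporters of the SLC6 family in neurons and glia. Inside cells it is converted in mitochondria, first by GABA transaminase and then by succinic semialdehyde dehydrogenase, to succinate. Neurons rebuild GABA from glutamate, much of it made from glutamine that astrocytes release and neurons take up, and nearly all striatal projection neurons use GABA as their transmitter.

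A cell held between 999700 and 9263305 counts (median 4440040). Cells were summed by group and batch, so that each of the 4 groups with a construct gave 3 sums of 3 to 15 cells, and the batch is the replicate throughout. Values are CPM, a gene's counts scaled by the total counts of the cell or of the sum. Astrocytes and Empty vector neurons came from batch 3 alone, gave 1 sum each, and were described without a test. The 22-gene astrocyte marker list summed to 28530 CPM in astrocytes and to between 514 and 3065 CPM in the neuron sums, while its member *Gjb6* was at 0 in the astrocytes. The pan-neuronal list summed to 953 CPM in astrocytes and to between 6065 and 14187 CPM in the neuron sums. The striatal projection list summed to 249 CPM in astrocytes and to between 745 and 5667 CPM in the neuron sums. In astrocytes 7 of its markers were at 0, *Drd1*, *Penk* and *Tac1* among them. Single markers separated the kinds of cell less well. *Drd2*, *Tac1* and *Pdyn* were at 0 in Empty vector neurons, and the median of *Tac1* was 0 in every neuron group. *Meis2* averaged 142 CPM in astrocytes and 129 CPM in 97Q RGFP109 neurons. In all, 8 neurons held at least 20% of the astrocytes' median marker level, a limit of 4935 CPM, and results that rest on them are given with and without them.

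The level of the genes differed widely within each cell kind. Divided by exon length, the mean over the 13 neuron sums was highest for *Abat*, at 32.5 ± 12.5 CPM per kilobase (SD, n = 13). *Slc38a2* followed at 14.4 ± 5.26 CPM per kilobase, and its gaps to *Abat* above it and to *Slc38a1* below it were larger than the SDs of both genes. *Slc38a1* (6.75 ± 2.71), *Aldh5a1* (6.12 ± 4.51), *Slc32a1* (5.15 ± 2.23) and *Slc38a3* (4.27 ± 8.10 CPM per kilobase) came next and did not differ among themselves beyond these SDs. *Slc6a11*, at 0.914 ± 1.01, and *Slc6a13*, at 0.0487 ± 0.164 CPM per kilobase, were lowest. In the astrocyte sum the order was headed by *Slc38a3*, at 121 CPM per kilobase, then *Abat* at 28.5, *Slc38a2* at 11.0, *Slc38a1* at 6.15 and *Aldh5a1* at 1.73, with *Slc32a1* at 0.00726 and both SLC6 genes at 0.

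**Figure D1:**
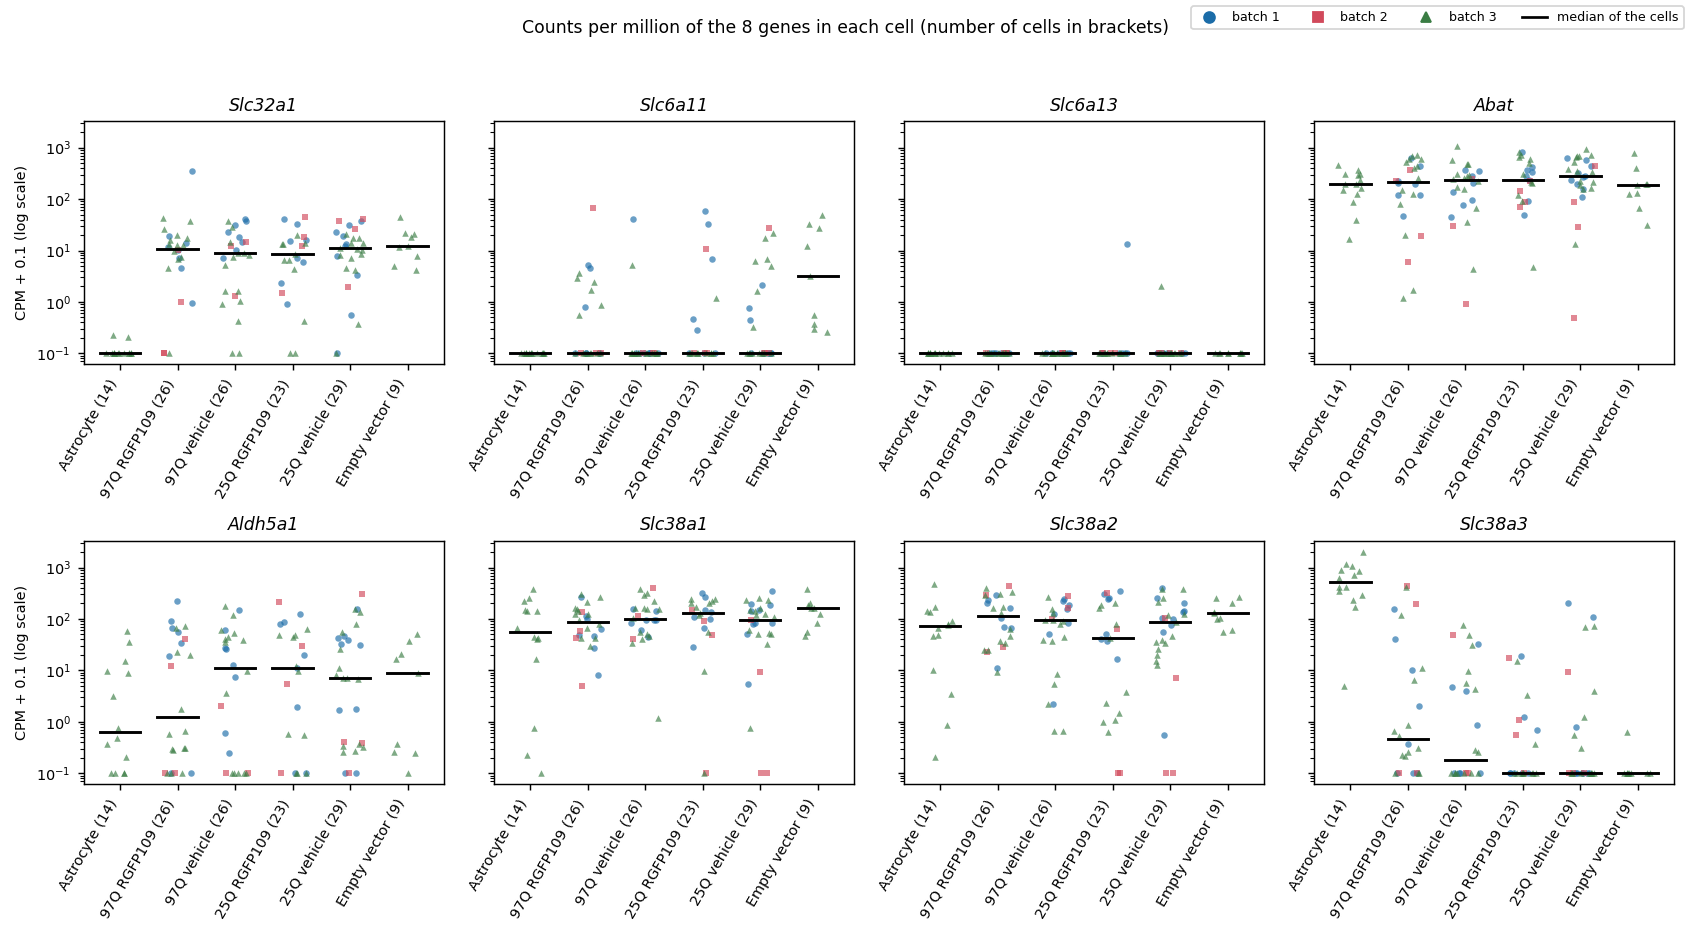
Level of the 8 genes in every cell, as CPM + 0.1 on a log axis; each point is 1 cell, its colour and shape give the batch, and the black line is the median of the group's cells. *Slc38a3* has its highest median in the 14 astrocytes (520 CPM), *Slc32a1* stays at or below 0.130 CPM there, and *Abat* has a count in every cell.

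*Slc32a1* (ENSMUSG00000037771; GRCm38 chr2:158610767-158615748, plus strand) encodes VGAT, the vesicular GABA transporter, which trades protons for GABA across the vesicle membrane. An antisense gene, *Gm14205*, shares 697 bases of its exons, and without a stated strand setting the reads of these genes cannot be told apart. A count was present in 92% of all neurons but in 2 of 14 astrocytes, where it was a single read each. The 250 bases before the RefSeq start of *Slc32a1*, on GRCm38.p6, are shown with those of *Slc6a11*, which had no count in the astrocytes, and of *Slc38a2*, which had counts in both kinds of cell. Capitals mark GGGCGG, the GC box, on either strand.
Slc32a1 (chr2:158610508-158610757, plus strand): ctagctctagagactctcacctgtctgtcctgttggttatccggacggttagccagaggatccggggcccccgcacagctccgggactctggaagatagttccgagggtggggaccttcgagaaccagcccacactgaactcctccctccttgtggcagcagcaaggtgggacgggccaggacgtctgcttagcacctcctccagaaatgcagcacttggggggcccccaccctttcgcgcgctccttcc
Slc6a11 (chr6:114130991-114131240, plus strand): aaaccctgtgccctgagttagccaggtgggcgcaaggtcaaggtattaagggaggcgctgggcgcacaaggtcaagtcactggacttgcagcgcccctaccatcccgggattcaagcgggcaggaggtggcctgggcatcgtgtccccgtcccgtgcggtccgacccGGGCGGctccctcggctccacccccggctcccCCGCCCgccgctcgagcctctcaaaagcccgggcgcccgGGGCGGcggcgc
Slc38a2 (chr15:96699729-96699978, minus strand): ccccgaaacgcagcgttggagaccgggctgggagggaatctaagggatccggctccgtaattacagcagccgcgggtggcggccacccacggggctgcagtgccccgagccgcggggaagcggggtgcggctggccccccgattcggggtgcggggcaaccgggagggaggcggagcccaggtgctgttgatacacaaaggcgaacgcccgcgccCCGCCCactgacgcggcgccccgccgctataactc
RefSeq start windows matched 5 of the 8 genes. The *Slc32a1* window had no GC box, that of *Slc6a11* had 3 and that of *Slc38a2* had 1, and GGGCGG occurs in 32.7% of the 32851 windows of this length. None of the 3 held TATAAA (12.4% of windows), CCAAT (33.8%), TGACGTCA (1.55%) or CACGTG (6.02%) on either strand. G and C made up 62.4% of the *Slc32a1* window, 71.2% of that of *Slc6a11* and 72% of that of *Slc38a2*, against a median of 52.4% over all windows.

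The sums of *Slc32a1* in batches 1, 2 and 3 were 22.4, 2.16 and 17.3 CPM in 97Q RGFP109 neurons, 19.3, 9.92 and 8.63 in 97Q vehicle, 14.6, 19.7 and 8.42 in 25Q RGFP109, and 14.4, 23.1 and 9.98 CPM in 25Q vehicle. The 4 groups overlapped, and the Empty vector sum, at 17.2 CPM, lay among them. Over single neurons the lowest, median and highest values were 0, 10.8 and 354 CPM in 97Q RGFP109, 0, 8.91 and 40.3 CPM in 97Q vehicle, 0, 8.57 and 44.9 CPM in 25Q RGFP109, and 0, 11.2 and 40.2 CPM in 25Q vehicle. The neuron at 354 CPM, number 6 of the 97Q RGFP109 group, was the shallowest of all cells and supplied 57.9% of the counts of its sum. Between 97Q and 25Q the fitted log2 fold change was -0.47 (SE 0.993) with vehicle and -0.26 (SE 0.73) over both treatments.

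Uptake transporters were sparse. *Slc6a11* (ENSMUSG00000030307; chr6:114131241-114249952, plus strand), a plasma membrane GABA transporter known chiefly from astrocytes, had no count in any of the 14 astrocytes, which allows a share of astrocytes with a count of up to 21.4%. It had a count in 34.5% of all neurons, and in all 9 Empty vector neurons, of which 4 held a single count and 4 reached 5 CPM. Its sums in batches 1, 2 and 3 were 1.58, 12.3 and 0.905 CPM in 97Q RGFP109, 7.33, 0 and 0.240 in 97Q vehicle, 10.9, 2.68 and 0.0955 in 25Q RGFP109, and 0.354, 4.64 and 4.21 CPM in 25Q vehicle. The Empty vector sum, at 14.8 CPM, stood above all 12 of these. In 6 of the 12 sums 1 neuron held every count of the gene, among them number 12 of 97Q RGFP109 with 159 counts and number 8 of 97Q vehicle with 269.

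A count of *Slc6a11* was found in 2 of 26 97Q vehicle neurons (7.69%; by the exact Clopper-Pearson method 0.946 to 25.1% at 95% confidence), against 11 of 29 25Q vehicle neurons (37.9%, 20.7 to 57.7%). With RGFP109 the shares were 10 of 26 in 97Q (38.5%) and 7 of 23 in 25Q (30.4%). The intervals treat cells as independent draws and cover only the sampling of cells, while cells of a batch are not replicates. PCR copies of a molecule are counted as separate reads. At 5 CPM the numbers were 2 of 26 in 97Q vehicle, 6 of 29 in 25Q vehicle, 2 of 26 in 97Q RGFP109 and 4 of 23 in 25Q RGFP109. The fitted log2 fold change of 97Q over 25Q was -2.56 (SE 2.60) with vehicle, 1.40 (SE 2.34) with RGFP109 and -0.58 (SE 1.43) over both. Each SE was as large as the fold change or larger, and no difference was detectable at this depth.

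*Slc6a13* (ENSMUSG00000030108; chr6:121300227-121337733, plus strand), a GABA and taurine transporter known chiefly from liver, kidney and the meninges, was counted in 2 cells. Number 8 of the 25Q RGFP109 neurons held 54 counts, or 13.5 CPM, and number 16 of 25Q vehicle held 8, or 1.98 CPM. A count of 0 in the 26 neurons of each 97Q group allows a share of up to 11.5%, and in the 14 astrocytes of up to 21.4%.

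*Slc6a6*, the taurine transporter of the same family, had a log2 fold change of 97Q over 25Q of -0.67 (SE 0.518) with vehicle and -0.40 (SE 0.375) over both treatments, and did not pass the threshold. *Gad1* and *Gad2*, which make GABA, had log2 fold changes of -1.97 (SE 0.174) and -1.36 (SE 0.169) over both treatments, with adjusted p of 0.0129 and 0.0555 by edgeR's quasi-likelihood test.

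Breakdown enzymes included the most abundant of the 8 genes. *Abat* (ENSMUSG00000057880; chr16:8513429-8621568, plus strand) encodes GABA transaminase. It was counted in every cell, at 16.5, 197 and 453 CPM (lowest, median, highest) in astrocytes. Its sums in batches 1, 2 and 3 were 286, 121 and 328 CPM in 97Q RGFP109, 189, 99.5 and 302 in 97Q vehicle, 294, 136 and 360 in 25Q RGFP109, and 317, 197 and 409 CPM in 25Q vehicle. Batch 2 was lowest in all 4 groups, and within each batch every 97Q sum lay below the 25Q sum of the same treatment when all cells were counted. The astrocyte sum, at 221 CPM, and the Empty vector sum, at 240 CPM, lay within this range.

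The log2 differences in *Abat* between 97Q and 25Q (97Q minus 25Q) in batches 1, 2 and 3 were -0.74, -0.98 and -0.44 with vehicle, and -0.04, -0.17 and -0.14 with RGFP109. Over these 6 pairs the mean was -0.42 ± 0.38 (SD), lower in 6 of 6. An exact two-sided sign-flip test over the pairs gave p = 0.03125, the smallest p that 6 pairs can give, and was 1 of 16 such tests, over 8 genes and both factors. The 6 pairs come from 3 batches, however, and with the batch as the unit the same exact test gave p = 0.25, the smallest that 3 batches allow. Without the 8 marker-rich neurons the RGFP109 pairs of batches 1 and 2 turned positive, at 0.17 and 0.21, so that *Abat* was lower in 4 of 6 pairs, with a mean of -0.33 ± 0.51 (SD) and p = 0.2188 in the exact test over pairs. With all cells counted, 2.81% of all 15091 genes tested were lower in all 6 pairs, and 1 of the 8 genes was. The fit gave -0.77 (SE 0.241) with vehicle and -0.41 (SE 0.169) over both treatments, and *Abat* did not pass the threshold in either, with adjusted p of 0.969 and 0.876 by edgeR's quasi-likelihood test. Over the alternative settings its adjusted p ran from 0.0579 by DESeq2 to 1 with vehicle, and from 0.195 to 1 over both treatments. The effect of RGFP109 was 0.44 (SE 0.24) in 97Q and -0.27 (SE 0.24) in 25Q, and their difference, 0.72 (SE 0.34), did not pass either, with an adjusted p of 0.998 in edgeR.

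Summed markers of some cell types also separated the vehicle groups. The 18 striatal projection markers summed to between 782 and 1184 CPM in the 97Q vehicle sums and to between 1611 and 5667 CPM in the 25Q vehicle sums, which do not overlap. The 12 endothelial and mural markers ran the other way without overlap, at 261 to 2347 CPM in 97Q vehicle and 97.8 to 226.9 CPM in 25Q vehicle. The largest members were *Acta2*, averaging 659 CPM in 97Q vehicle and 98.2 in 25Q vehicle, and *Tagln*, at 298 and 54.85 CPM. Both were higher in the astrocyte sum, at 3625 and 1483 CPM, so this list does not tell such cells from astrocytes here. Other members were low, and some, such as *Rgs5* (0 and 7.50 CPM), were lower in 97Q vehicle. The astrocyte markers overlapped, and summed to between 1130 and 1829 CPM in 97Q vehicle and to between 514 and 3065 CPM in 25Q vehicle. The part of these markers in the values of *Abat* was not tested. Without the 8 marker-rich neurons the *Abat* log2 fold change was -0.80 with vehicle and 0.22 with RGFP109, where the value with all cells was -0.05 (SE 0.239).

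*Aldh5a1* (ENSMUSG00000035936; chr13:24907579-24937661, minus strand) encodes succinic semialdehyde dehydrogenase, the enzyme after *Abat* in the path. Its exons share 796 bases with *4932702P03Rik* and 203 with *9330162012Rik* on the opposite strand, and the reads of these genes cannot be told apart. Its sums in batches 1, 2 and 3 were 56.3, 11.8 and 13.0 CPM in 97Q RGFP109, 28.2, 0.692 and 42.98 in 97Q vehicle, 42.1, 61.8 and 21.8 in 25Q RGFP109, and 33.02, 94.3 and 31.8 CPM in 25Q vehicle. The groups overlapped, and the largest gap, in batch 2 with vehicle, rested on number 12 of the 25Q vehicle neurons, which held 99.8% of that sum's counts. The fitted log2 fold change of 97Q over 25Q was -1.17 (SE 1.34) with vehicle, -0.95 (SE 0.945) over both treatments, and 0.23 with vehicle without batch 2. The Empty vector sum, at 11.7 CPM, and the astrocyte sum, at 9.78 CPM, were both below 11 of the 12 sums with a construct.

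Of 10 other genes around GABA breakdown, 9 were tested, 6 with a value above 0 and 3 below it for 97Q over 25Q with vehicle. None passed the threshold by edgeR, DESeq2 or limma voom, and none had an unadjusted p under 0.05 in edgeR. *Adhfe1*, which oxidises the related acid gamma-hydroxybutyrate, had a log2 fold change of 3.87 (SE 2.75) with vehicle, on sums that averaged 9.48 CPM in 97Q vehicle and 4.70 CPM in 25Q vehicle, and it reached 264 CPM in the astrocyte sum. *Akr7a5*, a reductase of succinic semialdehyde, had 0.93 (SE 0.791).

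*Slc38a1* (ENSMUSG00000023169; chr15:96571418-96642913, minus strand) and *Slc38a2* (ENSMUSG00000022462; chr15:96687392-96699730, minus strand) are neighbours, 44479 bases apart, and encode the sodium-driven carriers SNAT1 and SNAT2, which bring glutamine into cells. *Slc38a1* had sums in batches 1, 2 and 3 of 91.6, 51.6 and 131 CPM in 97Q RGFP109, 96.4, 169 and 159 in 97Q vehicle, 158, 75.7 and 151 in 25Q RGFP109, and 142, 16.4 and 128 CPM in 25Q vehicle. The groups overlapped, and only 16.4 CPM, from 4 cells of batch 2, stood far from the rest. The log2 fold change of 97Q over 25Q was 0.90 (SE 0.609) with vehicle, -0.10 without batch 2, and 0.22 (SE 0.421) over both treatments. Astrocytes had 0, 54.8 and 375 CPM (lowest, median, highest).

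*Slc38a2* had sums in batches 1, 2 and 3 of 155, 185 and 156 CPM in 97Q RGFP109, 126, 174 and 76.8 in 97Q vehicle, 174, 97.7 and 54.8 in 25Q RGFP109, and 143, 41.4 and 131 CPM in 25Q vehicle. With all cells counted the 97Q RGFP109 sums were the closest together of the 4 groups, with an SD of 16.7 CPM, and the groups overlapped. Neuron 11, which is marker-rich, held 62.7% of the counts of the batch 2 sum. Without the marker-rich neurons the 97Q RGFP109 sums in batches 1, 2 and 3 were 146, 93.9 and 165 CPM. With all cells counted *Slc38a2* was the only gene of the 8 with at least 5 CPM in all 26 neurons of that group. In 25Q RGFP109 it reached this in 15 of 23 neurons, and the shares of both vehicle groups lay between. Cells of a batch are not replicates, and this difference was not tested. The fitted log2 fold change of 97Q over 25Q was 0.19 (SE 0.535) with vehicle and 0.80 (SE 0.529) with RGFP109. Across all neurons *Slc38a1* and *Slc38a2* had a Spearman rho of 0.18, a description over cells that share batches and differ in depth. The gene whose pattern over neurons was most like that of *Slc38a2* was *Aacs*, an acetoacetyl-CoA synthetase, with a rho of 0.53.

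*Slc38a3* (ENSMUSG00000010064; chr9:107650634-107669530, minus strand) encodes SNAT3, the carrier through which astrocytes are known to release glutamine. It was counted in 14 of 14 astrocytes, at 4.82, 520 and 1981 CPM (lowest, median, highest), and its sum there was 639 CPM. Empty vector neurons had 3 counts in 1 of 9 cells, a sum of 0.0701 CPM from the same batch. In the neurons with a construct it was counted in 50 of 104, and the group medians were 0.355 CPM in 97Q RGFP109, 0.0787 CPM in 97Q vehicle, and 0 in both 25Q groups. Genes with the most similar pattern over all neurons were *Anxa3*, *C3* and *Cfap126*, with rho of 0.58, 0.56 and 0.56.

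The *Slc38a3* sums in batches 1, 2 and 3 were 19.5, 159 and 38.1 CPM in 97Q RGFP109, 3.84, 17.7 and 8.53 in 97Q vehicle, 2.39, 4.70 and 1.66 in 25Q RGFP109, and 26.9, 1.30 and 8.61 CPM in 25Q vehicle. All 3 of the 97Q RGFP109 sums lay above those of 25Q RGFP109 and above those of 97Q vehicle, and the other 2 comparisons overlapped. *Slc38a3* was the only gene of the 8 whose sums did not overlap, in 97Q over 25Q with RGFP109, where 7.18% of all tested genes had such sums, and in RGFP109 over vehicle in 97Q, where 6.15% had; no gene of the 8 did so in 97Q over 25Q with vehicle (8.47% of all) or in RGFP109 over vehicle in 25Q (6.73%). The fitted log2 fold change was 4.58 (SE 1.31) for 97Q over 25Q with RGFP109 and 2.86 (SE 1.21) for RGFP109 over vehicle in 97Q. In 25Q, RGFP109 over vehicle was -2.44 (SE 1.23), and the 97Q drug effect minus the 25Q one was 5.29 (SE 1.70). None passed the threshold by edgeR, with Benjamini-Hochberg adjusted p of 0.999, 0.999, 1 and 0.998. DESeq2 called the first of these, among 277 of 15091 genes, with an adjusted p of 0.00383, and over all alternatives that p ran from 0.00383 to 1.

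Those values rested on few cells. The cell with most *Slc38a3* in each 97Q RGFP109 sum held 86.5%, 74.7% and 76.9% of its counts, and these were neurons 4, 11 and 22, at 158, 446 and 411 CPM. All 3 were among the 8 marker-rich neurons, with astrocyte marker sums of 11117, 6385 and 12633 CPM. The 8 together held 63.7% of all *Slc38a3* counts in neurons, against 1.91% of those of *Slc32a1* and 6.58% or less of those of the other 6 genes. Their median *Slc38a3* level was 133.6 CPM, and that of the other 105 neurons was 0, although 1 of the 8 had no count of it. High levels also occurred below the limit, as in neuron 10 of 97Q RGFP109, with 196 CPM and a marker sum of 848 CPM. Spearman's rho between *Slc38a3* and the marker sum was 0.38 over all neurons and 0.28 over the 105 below the limit.

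Without the 8 marker-rich neurons the *Slc38a3* sums in batches 1, 2 and 3 were 2.96, 54.96 and 9.48 CPM in 97Q RGFP109, 3.84, 17.7 and 8.69 in 97Q vehicle, 0.123, 4.70 and 1.66 in 25Q RGFP109, and 0.0849, 1.30 and 8.61 CPM in 25Q vehicle. The log2 fold change for RGFP109 over vehicle in 97Q was then 0.63, and the difference between the drug effects was 1.37. That for 97Q over 25Q with RGFP109 was 3.85. The sums then overlapped in both comparisons that had not overlapped with all cells, 97Q over 25Q with RGFP109 and RGFP109 over vehicle in 97Q, while within each batch the 97Q RGFP109 sum still lay above the 25Q RGFP109 sum. With vehicle it was 2.48 without these neurons and -0.71 (SE 1.24) with them. The summed astrocyte markers came to 1968 to 2096 CPM in 97Q RGFP109, 1130 to 1829 in 97Q vehicle, 1178 to 2772 in 25Q RGFP109 and 514 to 3065 CPM in 25Q vehicle. The 97Q RGFP109 sums of these markers lay wholly above those of 97Q vehicle, and the ranges of the other pairs of groups compared overlapped. With RGFP109 the interneuron markers (12.0 to 99.8 CPM in 97Q, 187 to 563 CPM in 25Q) and the meningeal fibroblast markers (52.5 to 124 CPM in 97Q, 21.6 to 47.8 CPM in 25Q) did not overlap. The largest fibroblast markers with RGFP109 were *Ogn*, averaging 35.9 CPM in 97Q and 19.2 in 25Q, and *Col1a2*, at 31.9 and 1.88 CPM. *Ogn* came to 1346 CPM in the astrocyte sum, so this list does not tell fibroblasts from astrocytes here. Some members, such as *Col1a1* (1.63 and 2.08 CPM), were lower in 97Q. The part of these markers in the values of *Slc38a3* was not tested.

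**Figure D2:**
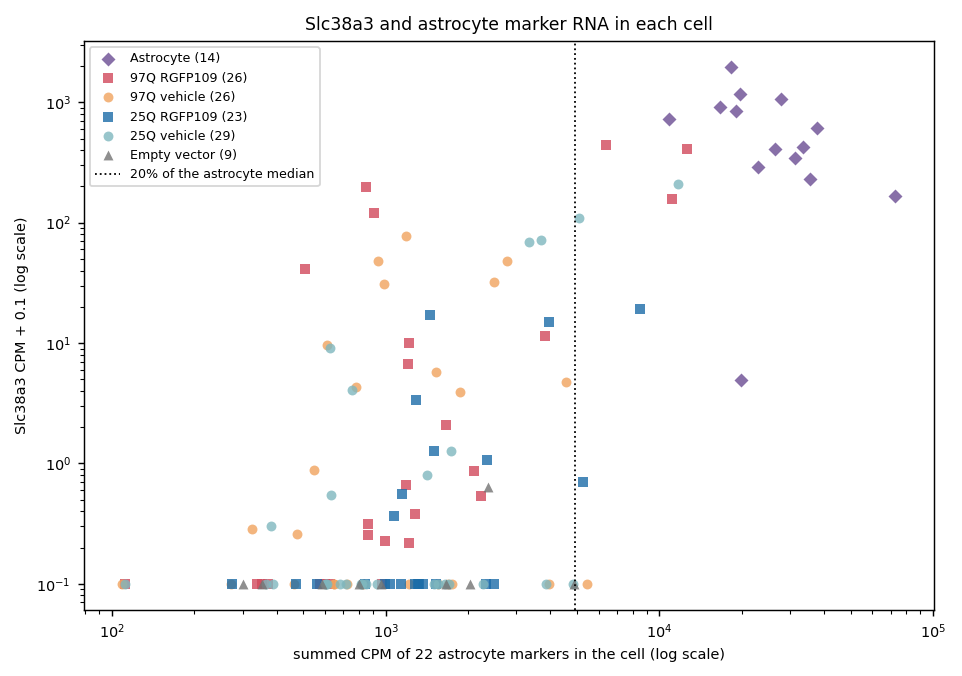
*Slc38a3* (CPM + 0.1) against the summed CPM of 22 astrocyte markers in each cell, both on log axes; colour and shape give the group, and the dotted line is the limit of 4935 CPM. The 14 astrocytes lie to the right, and of the 8 neurons beyond the line 3 belong to 97Q RGFP109, 1 to 97Q vehicle, 2 to 25Q RGFP109 and 2 to 25Q vehicle.

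Of 21 genes of the glutamine and glutamate cycle, 16 were tested, 10 above 0 and 6 below for 97Q over 25Q over both treatments. None passed the threshold by edgeR. An unadjusted p under 0.05 was found for 1 of the 16, where 5.53% of all tested genes had one, and DESeq2 called that gene among 309 of 15091. It was *Slc1a2*, a glutamate transporter known from astrocytes, which averaged 14.6 CPM in 97Q RGFP109, 16.1 in 97Q vehicle, 112 in 25Q RGFP109 and 30.7 CPM in 25Q vehicle. Its log2 fold change was -2.47 (SE 0.631), with an adjusted p of 0.717 by edgeR's quasi-likelihood test. The astrocyte sum held 30.8 CPM of it, less than 112.9 CPM in the Empty vector neurons. *Glul*, glutamine synthetase, had -0.97 (SE 0.59) with vehicle.

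The proton pump that drives vesicle filling was followed through 17 V-ATPase genes, all tested. None passed the threshold by edgeR, DESeq2 or limma voom, and over both treatments 13 were above 0 and 4 below, with 2 of 17 at an unadjusted p under 0.05, where 5.53% of all tested genes were. *Atp6v1h* averaged 669 CPM in 97Q vehicle and 405 CPM in 25Q vehicle, a log2 fold change of 0.73 (SE 0.236), and 0.63 (SE 0.167) over both treatments. *Atp6v1c1* had 0.78 (SE 0.354) with vehicle and *Atp6v0a1* 0.34 (SE 0.151) over both. Of 12 other vesicular transporters and vesicle proteins 7 were tested and none passed by the same tools. An unadjusted p under 0.05 was found for 1 of the 7 with vehicle, against 3.96% of all tested genes, and for 1 of the 7 over both treatments, against 5.53%. *Sv2a* averaged 417 CPM in 97Q vehicle and 269 CPM in 25Q vehicle (0.61, SE 0.244), *Sv2b* 0.228 CPM in 97Q vehicle and 37.5 CPM in 25Q vehicle (-6.44, SE 2.98). *Sv2c* had a log2 fold change of -2.03 (SE 0.827) over both treatments.

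**Figure D3:**
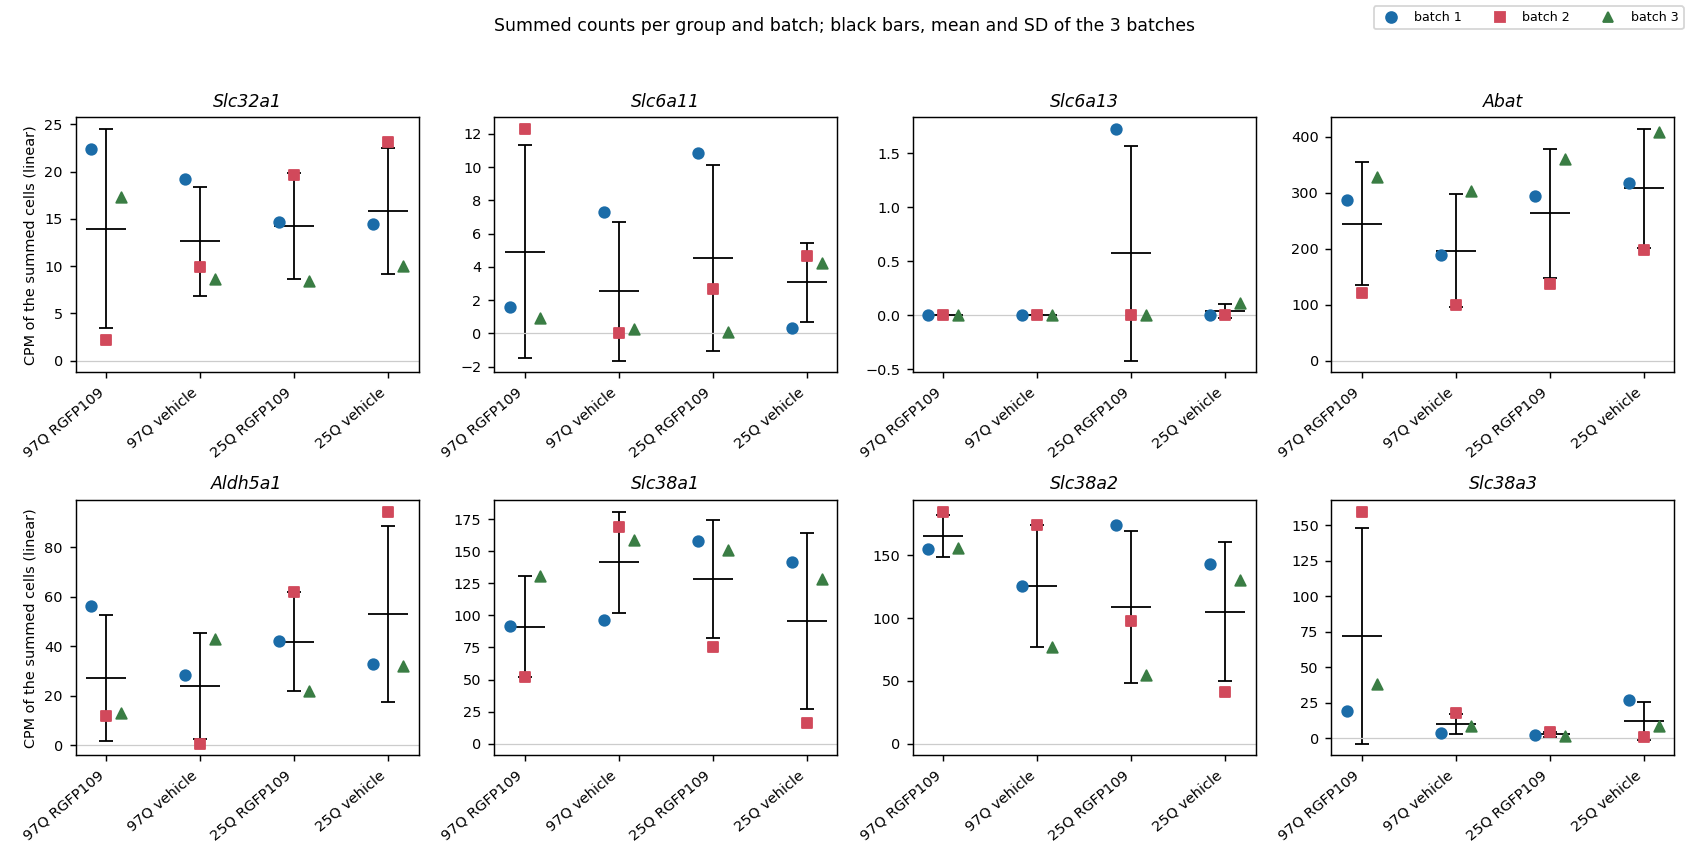
CPM of the summed cells for each of the 8 genes (linear axes that differ between panels), by group; each point is 1 batch and black bars are the mean and SD of 3 batches. *Abat* is lowest in batch 2 in every group, and the 97Q RGFP109 sums of *Slc38a3* (19.5 to 159 CPM) lie above those of 97Q vehicle and 25Q RGFP109.

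As a list, the 7 genes tested gave no call by edgeR's quasi-likelihood test in any of the 7 comparisons. The share of all 15091 genes past the adjusted threshold of 0.05 was 0.0199% for 97Q over 25Q over both treatments and 0% for the other 6 comparisons. DESeq2 called 1 of the 7, *Slc38a3* in 97Q over 25Q with RGFP109, and limma voom called 0. At an unadjusted p under 0.05 the fit held 1 of the 7 for 97Q over 25Q with vehicle (*Abat*), against 3.96% of all genes, 1 with RGFP109 (*Slc38a3*, 3.74%) and 1 over both treatments (*Abat*, 5.53%). For RGFP109 over vehicle it held 1 in 97Q (*Slc38a3*, 2.48%), 0 in 25Q (2.52%) and 0 over both repeat lengths (2.75%), and for the difference between the drug effects 1 (*Slc38a3*, 2.6%). These comparisons share samples, so the counts are not independent.

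For 97Q over 25Q with vehicle, 5 of the 7 log2 fold changes were below 0 and 2 above, with a median of -0.71 beside 0.06 over all genes. That median is the value of *Slc38a3* (SE 1.24), which turned positive without the 8 marker-rich neurons. Of the values below 0 only that of *Abat* (-0.77, SE 0.241) was larger than its SE, so no shift of the list is shown. With RGFP109 the median was -0.05 beside 0.00, and over both treatments -0.26 beside 0.04. For RGFP109 over vehicle 6 of 7 were above 0 in 97Q (median 0.44 beside -0.04) and 1 of 7 in 25Q (median -0.27 beside 0.00). The difference between the drug effects was above 0 in 6 of 7, with a median of 0.61 beside -0.04. Of the values above 0 in 97Q, only those of *Abat*, *Slc38a2* and *Slc38a3* were larger than their SE. For the values below 0 in 25Q and those above 0 in the difference, only *Abat* and *Slc38a3* were. The *Slc38a3* value in 97Q fell without the 8 marker-rich neurons. These comparisons share sums, and no shift of the list with the drug is shown.

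**Figure D4:**
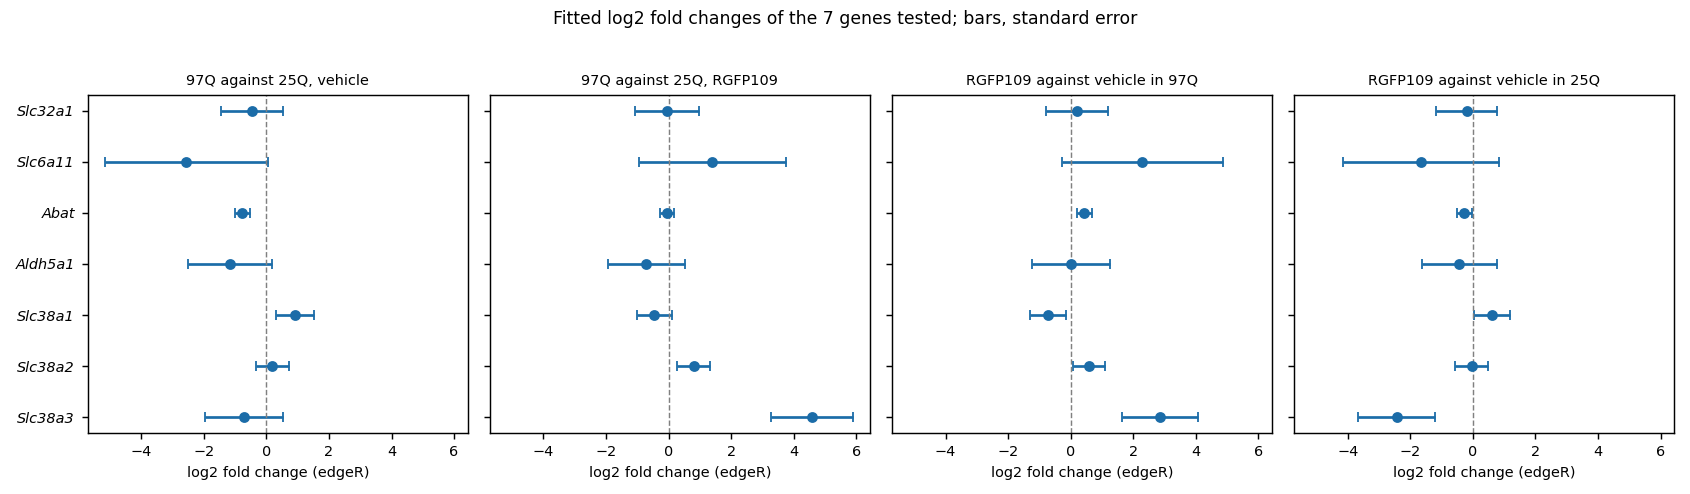
Fitted log2 fold changes of the 7 genes tested (edgeR), 1 panel per comparison; points are the fitted values, bars 1 SE and the dashed line is 0. *Abat* has the narrowest bars (SE 0.239 to 0.241) and *Slc6a11* the widest (2.34 to 2.60), and *Slc38a3* reaches 4.58 for 97Q over 25Q with RGFP109.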

How the data were processed

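Raw read counts per gene and cell, with no normalization, were deposited by the authors; per the submitters' processing notes FastQC, Trimmomatic 0.36, STAR 2.5 and HTSeq 0.9.1 were used with GRCm38 (mm10), while settings, strand and annotation release are not stated there. Gene positions and exon lengths are from GENCODE M21. Counts of the cells of a group in a batch were summed (12 sums), and CPM divides by the total. Genes passing edgeR's filterByExpr with a count in at least 20% of the 104 cells (15091) were tested in edgeR 4.0.16 (R 4.3.3): TMM, group plus batch, robust quasi-likelihood F test, 6 residual degrees of freedom, Benjamini-Hochberg over all genes at 0.05. The code was tested on simulated data. The batch term takes out any shift common to the sums of one batch. P-values therefore rest on the spread left among the 12 sums once group and batch are fitted, which may be technical. Batch is the block because the labels give it; deviations from group means correlated at 0.0969 to 0.299 within a batch and at -0.187 to 0.0347 between batches. The batch-matched differences used a pseudocount of 1 CPM. DESeq2 1.42.0, limma 3.58.1, other scalings, filters and cell sets were alternatives. The genes and lists were chosen with earlier results of these data known. Named list genes are the 2 of smallest p per list in 97Q over 25Q with vehicle and over both treatments; similar genes needed a rho of 0.5. Some genes that this rule names are not reported here. The series text counts more neurons than the 113 analysed here.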

Additional observations from a re-analysis of the deposited data

Results flagged for a closer look

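In all, 4 values stood apart from the other Empty vector neurons by Dixon's test at the 95% level in 9 cells, run on 7 genes. The test flags about 1 in 20 groups by chance only where values are normally distributed. CPM over single cells is skewed towards high values, so more flags than that can arise by chance. Empty vector neuron 8 held the highest *Slc32a1* of that group, 44.7 CPM against a median of 12.0 CPM. The same neuron held the highest *Abat*, 793 CPM against a median of 187 CPM. It was also the only one with *Slc38a3*, at 0.532 CPM from 3 counts; the other 8 cells were at 0, so any count in 1 cell would have stood apart and the test says nothing here. Empty vector neuron 2 held the highest *Slc38a1*, 378 CPM against a median of 164 CPM.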

How the results depend on the processing

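Each of the 7 genes tested was refitted in 7 comparisons under 11 other settings, which gave 539 log2 fold changes. Of these 475 kept their sign and their side of the threshold, 63 changed sign with no call in either fit, and 1, *Slc38a3* in 97Q over 25Q with RGFP109, passed the threshold under DESeq2 (4.59). The cause was not tested. *Abat* kept a negative value in all 11 settings for 97Q over 25Q with vehicle and over both treatments.

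With limma voom the sign changed in 97Q over 25Q with vehicle (*Slc38a2* -0.11, *Slc38a3* 0.15), 97Q over 25Q with RGFP109 (*Slc32a1* 0.23), 97Q over 25Q over both treatments (*Slc32a1* 0.05, *Slc38a1* -0.10) and RGFP109 over vehicle over both lengths (*Slc38a1* 0.10). With no filter on low counts the sign changed in RGFP109 over vehicle in 97Q (*Aldh5a1* -0.03) and RGFP109 over vehicle in 25Q (*Slc38a2* 0.01). With no replicate block the sign changed in 97Q over 25Q over both treatments (*Slc6a11* 0.00), RGFP109 over vehicle in 25Q (*Slc6a11* 0.47, *Slc38a2* 0.07) and RGFP109 over vehicle over both lengths (*Slc32a1* -0.02). Without the 8 marker-rich neurons the sign changed in 97Q over 25Q with vehicle (*Slc38a3* 2.48), 97Q over 25Q with RGFP109 (*Slc32a1* 0.05, *Abat* 0.22) and RGFP109 over vehicle over both lengths (*Slc38a3* -0.05). With every cell weighted equally in limma the sign changed in 97Q over 25Q with vehicle (*Slc38a3* 0.49), RGFP109 over vehicle in 97Q (*Slc32a1* -0.35), RGFP109 over vehicle in 25Q (*Slc6a11* 0.03, *Abat* 0.40, *Aldh5a1* 0.39), RGFP109 over vehicle over both lengths (*Slc32a1* -0.34, *Aldh5a1* 0.31, *Slc38a1* 0.10) and the contrast of both drug effects (*Slc32a1* -0.04, *Abat* -0.04, *Aldh5a1* -0.17). With cells thinned to 900000 counts the sign changed in 97Q over 25Q with RGFP109 (*Slc32a1* 0.78), 97Q over 25Q over both treatments (*Slc32a1* 0.09), RGFP109 over vehicle in 97Q (*Aldh5a1* -0.03), RGFP109 over vehicle in 25Q (*Slc38a2* 0.11) and RGFP109 over vehicle over both lengths (*Slc38a3* -0.04). Leaving out 1 batch in turn gave ranges that cross 0 or lie beyond it in 97Q over 25Q with vehicle (*Slc32a1* -0.98 to 0.13, *Slc6a11* -4.46 to 0.58, *Aldh5a1* -3.04 to 0.23, *Slc38a1* -0.10 to 1.61, *Slc38a2* -0.48 to 0.69, *Slc38a3* -1.51 to 0.95), 97Q over 25Q with RGFP109 (*Slc32a1* -0.81 to 0.73, *Slc6a11* -0.79 to 2.63, *Abat* -0.18 to 0.02), 97Q over 25Q over both treatments (*Slc32a1* -0.77 to 0.43, *Slc6a11* -1.17 to 0.37, *Aldh5a1* -2 to 0.08, *Slc38a1* -0.35 to 0.67), RGFP109 over vehicle in 97Q (*Slc32a1* -0.32 to 0.57, *Slc6a11* -0.34 to 4.35, *Aldh5a1* -0.73 to 1.55), RGFP109 over vehicle in 25Q (*Slc6a11* -2.75 to 1.51, *Slc38a2* -0.33 to 0.60), RGFP109 over vehicle over both lengths (*Slc32a1* -0.28 to 0.27, *Slc6a11* -0.71 to 1.29, *Aldh5a1* -0.70 to 0.52, *Slc38a1* -0.02 to 0.05, *Slc38a3* -0.45 to 1.04) and the contrast of both drug effects (*Slc32a1* -0.09 to 0.61, *Slc6a11* -0.43 to 7.09, *Aldh5a1* -0.31 to 2.07, *Slc38a2* -0.12 to 1.00); within these ranges the sign had also changed in RGFP109 over vehicle over both lengths (*Slc32a1* -0.06 without batch 1), RGFP109 over vehicle in 97Q (*Aldh5a1* -0.34 without batch 2), the contrast of both drug effects (*Aldh5a1* -0.06 without batch 1), RGFP109 over vehicle over both lengths (*Slc38a1* 0.02 without batch 2).

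The number of genes past the threshold was 0 in 6 comparisons and 3 for 97Q over 25Q over both treatments. DESeq2 called 213 and 277 genes for 97Q over 25Q with vehicle and with RGFP109, 309 over both, 110, 143 and 62 for RGFP109 over vehicle in 97Q, in 25Q and over both lengths, and 70 for the contrast of both drug effects. With RGFP109, limma voom and the fit with no filter on low counts called 3 each for 97Q over 25Q; with no filter there were 5 over both treatments and 1 for RGFP109 over vehicle in 97Q. Over both treatments the count was 0 with no replicate block, 0 in each fit that left out a batch (lowest and highest 0), and 1 with every cell weighted equally.

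A pseudocount of 0.5 or 5 CPM changed the sign or call of none of the 16 batch-matched differences. Leaving out the 8 marker-rich neurons or taking the batch as the unit, both added after the data were seen, changed the sign of none of the 16 means. *Slc38a3* was higher in 97Q in 6 of 6 pairs without these neurons, against 4 of 6 with them. In batch 3 with vehicle that log2 difference was only 0.01, and the share of all genes higher in 6 of 6 pairs was not counted. With all cells and the batch as the unit, the exact sign-flip test for *Slc38a3* gave p = 0.25, the smallest that 3 batches allow. Of 48 shares of cells with a count, 4 moved outside their interval at a depth of 900000 counts and 17 at 5 CPM. Levels not divided by length moved *Slc38a3* above *Slc32a1* in neurons and *Slc38a1* above *Slc38a2* in astrocytes. A setting added after the data were seen left out the cell with most counts of a gene in each sum; 5 of 32 group means then moved by more than 1 SD, to 18.7 CPM (*Aldh5a1*, 25Q RGFP109), 15.1 (*Aldh5a1*, 25Q vehicle), 122 (*Slc38a2*, 97Q RGFP109), 2.66 (*Slc38a3*, 97Q vehicle) and 0.343 CPM (*Slc38a3*, 25Q RGFP109). With 3 batches and a common biological coefficient of variation of 0.928, an uncalled gene is not shown to be unchanged.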
